A study of Mus musculus with 4 samples.

Results

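E2A peaks at 46 genes for chromatin remodelers, corepressors, histone-modifying enzymes and DNA methylation enzymes were examined in thymic DP and iNKT cells of L-DKO mice. The genes were listed by name as subunits and enzymes of these complexes, and all 46 had a protein-coding gene of the same symbol in GENCODE M1, an annotation of mm9 with 22208 such symbols on chromosomes 1 to 19 and X. A peak was given to a gene when its midpoint lay in the gene body, up to 30 kb upstream or up to 5 kb downstream, a stretch called the window of the gene below. E2A is the E protein encoded by Tcf3, and Id proteins keep E proteins off DNA. L-DKO mice carry floxed Id2 and Id3 and an LckCre transgene, which deletes both genes in the T lineage. Both cell types analysed here are thus Id2- and Id3-deficient by genotype, and the extent of deletion was not measured here. No Id-sufficient sample was used. The mice were 3 to 5 weeks old and were C57BL/6 or hybrids of C57BL/6 and 129. DP cells were sorted as CD1dTet- CD4+ CD8+ and iNKT cells as CD1dTet+ TCRβ+. Cells pooled from 3 to 4 mice gave 1 E2A library and 1 input library for each cell type.

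With 1 library per cell type there was no replicate error, and no test between DP and iNKT cells was made. The deposited lists hold 17532 DP peaks and 1516 iNKT peaks, each with a MACS score (the negative log10 of the p-value, multiplied by 10). The lowest score in both lists was 50. Read counts are not part of the lists, which leaves sequencing depth unknown, and a longer list cannot be told apart from deeper sequencing. Scores are therefore given with their rank within a list and are not compared as amounts between lists. Intervals are 95% Wilson intervals and cover counting error only.

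The proteins encoded by these genes change how DNA is packed or marked. SWI/SNF complexes slide or evict nucleosomes with the ATPases encoded by Smarca4 and Smarca2. The NuRD complex joins the ATPase of Chd4 with the deacetylases of Hdac1 and Hdac2, which also act in SIN3 complexes, whereas Hdac3 acts with the corepressor Ncor1. Crebbp, Ep300, Kat2a and Kat2b encode acetyltransferases that serve as coactivators, including for E proteins. Polycomb complexes methylate or ubiquitinate histones at silent genes, Dnmt enzymes methylate cytosine, and Tet enzymes oxidize methylcytosine. Several of these genes are known for roles in thymocytes, among them Hdac7 in the selection and survival of DP cells, and Ezh2, Jarid2, Tet2 and Tet3 in limiting or maturing iNKT cells.

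In DP cells, E2A peaks were found at most of these genes. A DP peak lay in the window of 36 of the 46 genes, which is 78.3% (64.4 to 87.7), whereas 39.2% of all protein-coding genes had one. The genes are long, with a median length of 48.8 kb against 15.5 kb for all protein-coding genes, and long genes hold more peaks. Among the 200 protein-coding genes nearest in length to each of the 46, a mean of 47.7% had a DP peak, which corresponds to 21.9 genes in place of 36. The genes were not chosen blind to these data, so the difference is a description and was not tested. The share lay above that of genes of like length among both the 23 shorter genes, with 17 bound (73.9%, 53.5 to 87.5, against 44.6%), and the 23 longer genes, with 19 bound (82.6%, 62.9 to 93.0, against 50.8%).

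The share also exceeded that of other genes when weak peaks were left out. A DP peak with a score of 100 or more was found at 29 of the 46 genes (63.0%, 48.6 to 75.5), beside 28.3% of all protein-coding genes and 36.2% of those of like length. A DP peak with a score of 200 or more was found at 22 (47.8%, 34.1 to 61.9), beside 19.9% and 26.5%. Only 6 of the genes had a peak in the top 10% of the DP list (13.0%, 6.12 to 25.7), and 6.55% of all protein-coding genes and 9.14% of those of like length did, which is inside the interval. A CpG-rich start site was present at 38 of the 46 genes (82.6%) and at 44.7% of all protein-coding genes. Where genes of like length were drawn only from those with a CpG-rich start, 54.2% had a DP peak, and the share of the 46 genes was 24.1 percentage points higher. Expression of the genes was not used here, and its part in this difference was not tested.

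**Figure D1:**
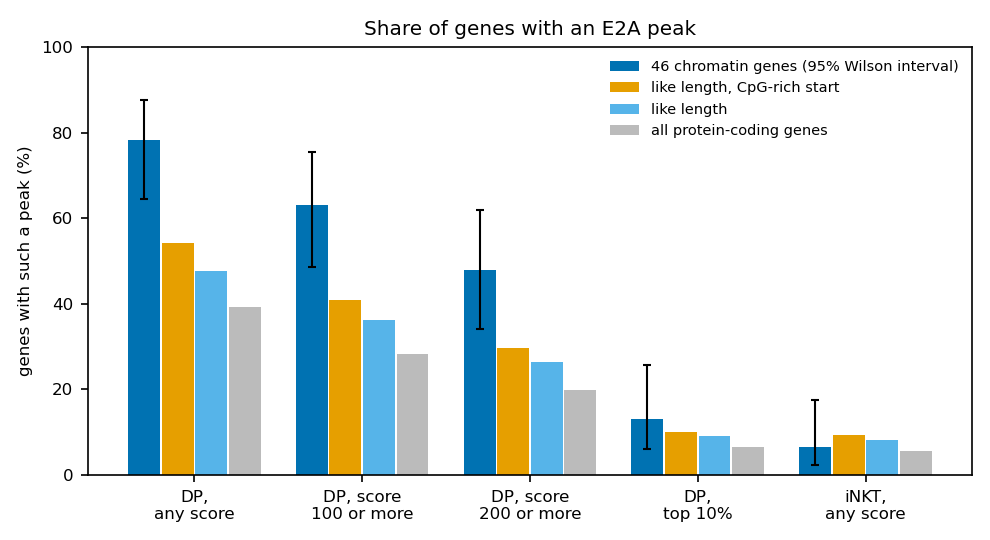
Share of genes with an E2A peak in the window, in percent, for the 46 chromatin genes (dark blue, with 95% Wilson intervals for counting error) and for 3 backgrounds: genes of like length with a CpG-rich start, genes of like length, and all protein-coding genes. For any DP peak the chromatin genes stand at 78.3% against 54.2%, 47.7% and 39.2%, while for iNKT peaks their 6.52% lies beside 9.45%, 8.20% and 5.71%.

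The iNKT list is far shorter. An iNKT peak lay at 3 of the 46 genes, Arid1b, Hdac7 and Ezh2, which is 6.52% (2.24 to 17.5). The share was 5.71% over all protein-coding genes and 8.20% over genes of like length, so no excess was detectable for these genes with so few peaks. The top 10% of the DP list, with 1753 peaks, is near the iNKT list in length, and its share of 13.0% also did not exceed that of genes of like length beyond the interval. Arid1b and Hdac7 had peaks in both lists, 4.35% of the genes (1.2 to 14.5), beside 4.85% of all protein-coding genes. All 5 iNKT peaks at these genes had scores under 100, between 51.3 and 89.0, and 1 of them lay above the median of the iNKT list, 79.6. Scores under 100 were common in this list, with 679 of the 1091 iNKT peaks at any protein-coding gene.

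The number of DP peaks per gene ranged from 0 to 21, with 123 peaks in all. No DP peak was found at 10 genes, 1 peak at 10 genes, 2 to 4 at 19 genes and 5 to 7 at 4 genes. The 3 genes with 8 or more peaks, Arid1b, Hdac4 and Hdac7, together held 37 of the 123. They are 6.52% of the 46 (2.24 to 17.5), and such a number was reached by 1.32% of all protein-coding genes and by 2.52% of those of like length, the latter inside the interval. The median score of the 123 peaks was 130 (quartiles 69.3 and 338), close to the 139 of DP peaks at any protein-coding gene.

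**Figure D2:**
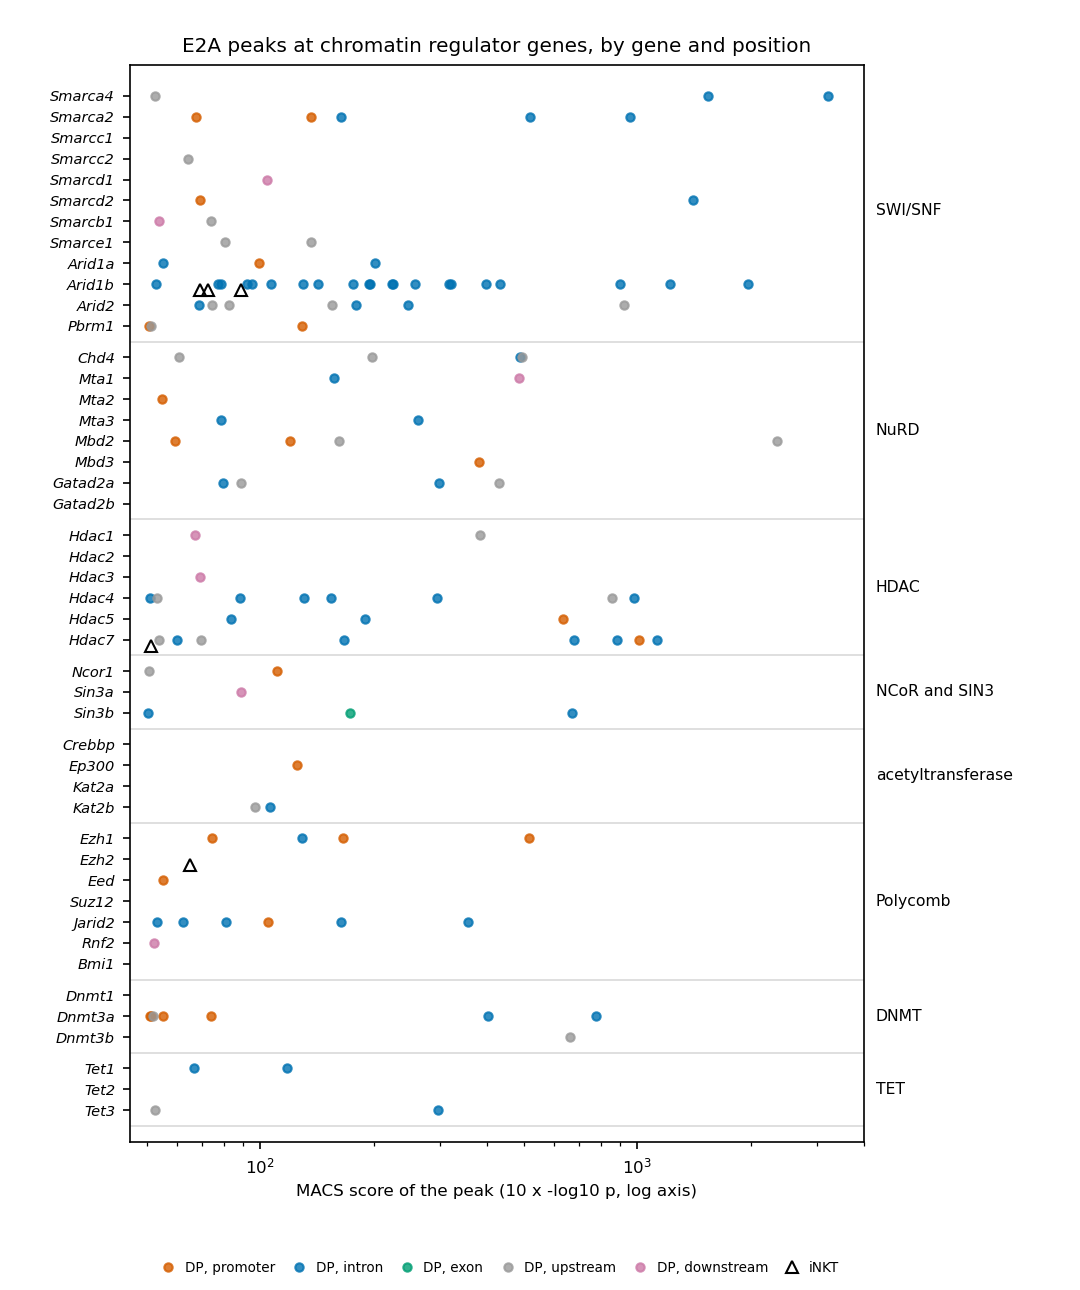
MACS score of every E2A peak at the 46 genes (log axis), 1 row per gene, grouped by complex. Circles are DP peaks, coloured by their position relative to the gene, and open triangles are iNKT peaks; rows without a circle are the 10 genes without a DP peak, and all 5 triangles lie under a score of 100.

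**Figure D3:**
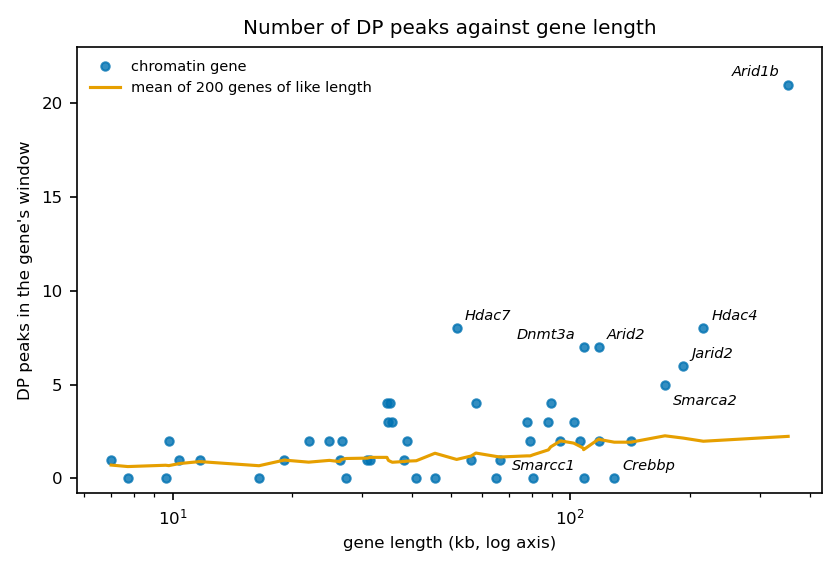
Number of DP peaks in the window of each of the 46 genes against gene length (log axis), with a line for the mean number over the 200 protein-coding genes nearest in length. Arid1b stands apart with 21 peaks where genes of its length had a mean of 2.24, and Hdac7 has 8 where the mean was 1.01.

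Among the 12 SWI/SNF genes, 11 had a DP peak, against 5.81 by the share in genes of like length, and they held 50 of the 123 peaks. Smarca4, which encodes the ATPase BRG1 and lies on chromosome 9 between 21420613 and 21508674 (plus strand), had the highest score of all 46 genes. This peak, from 21456045 to 21458360 in an intron 36.6 kb into the gene, scored 3202 and was 1 of 26 DP peaks above 3100, a score that a further 258 DP peaks share exactly. No order was read among these 284 peaks. A further intronic peak 9.97 kb into the gene had a score of 1539 and ranked 944, and a peak 6.82 kb upstream scored 52.4. Smarca4 had no iNKT peak, and the nearest lay 136 kb beyond the window. Smarca2, the other ATPase gene, held 5 DP peaks with scores from 67.6 to 958. Its best, 41.0 kb into the gene, ranked 1754 and thus fell 1 place below the top 10% of the list.

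The stretch around the E-box nearest the midpoint of the best Smarca4 peak is shown with that of Smarcd2, because these 2 genes and Arid1b had the SWI/SNF peaks in the top 10% of the DP list. They were read from the plus strand of mm9 at chr9:21456960-21457045 and chr11:106130572-106130657, both in introns. Capitals mark CAGGTG, its reverse complement CACCTG, or CAGCTG.
Smarca4 DP peak: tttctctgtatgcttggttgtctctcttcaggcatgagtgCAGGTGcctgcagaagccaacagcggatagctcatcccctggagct
Smarcd2 DP peak: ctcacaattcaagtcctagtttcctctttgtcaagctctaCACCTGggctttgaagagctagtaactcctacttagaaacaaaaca

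The Smarca4 site lay 200 bp from the midpoint of the peak, and the peak as a whole held 6 CAGGTG or CACCTG sites. Smarcd2, which encodes an accessory subunit, had an intronic peak 3.82 kb into the gene with a score of 1403 and a rank of 1085, and a peak over its start with a score of 69. Both also lay in the windows of 2 neighboring genes. Its paralog Smarcd1 had only a peak 15.5 kb from its start with a score of 104, inside the neighboring gene Gpd1.

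Arid1b, whose product gives the BAF form of SWI/SNF its DNA-binding ARID subunit, had more DP peaks than any other of the 46 genes. It covers 353 kb of chromosome 17 between 4994332 and 5347656 (plus strand), and its 21 DP peaks placed it at rank 6 of all protein-coding genes by number. Of the 200 genes of like length, 1 had as many. Every one of the 21 peaks lay in an intron and more than 1 kb from the annotated start sites, from 12.9 to 337 kb into the gene. Their median score was 195, with 10 peaks at 200 or more and 5 under 100. The 5 closest peaks lay within 17.1 kb, from 90.0 to 107 kb, and the widest interval without a peak ran from 201 to 277 kb. Per 100 kb of window the gene had 5.41 peaks, which placed it at 1559 of 22208 by density among genes of any length. Hdac7, Chd4 and Ezh1 were denser, with 9.21, 5.75 and 5.69.

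The 3 iNKT peaks in Arid1b each overlapped a DP peak, and these were the 3 highest DP peaks of the gene. At 132 kb an iNKT peak scoring 89.0, at rank 656, overlapped a DP peak scoring 898. At 187 kb the scores were 72.7 in the iNKT list and 1221 in the DP list. At 302 kb an iNKT peak scoring 69 overlapped the best DP peak of the gene, which scored 1973 and ranked 662. The order of the 3 scores was thus opposite in the lists. The sequences at the best iNKT peak, near 132 kb, and at the best DP peak, near 301 kb, are shown because E2A peaks of both lists cover the E-box in each. They lie at chr17:5125766-5125851 and chr17:5295608-5295693 on the plus strand of mm9.
Arid1b, near 132 kb: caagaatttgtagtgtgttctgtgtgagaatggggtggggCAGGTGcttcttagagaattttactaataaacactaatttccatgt
Arid1b, near 301 kb: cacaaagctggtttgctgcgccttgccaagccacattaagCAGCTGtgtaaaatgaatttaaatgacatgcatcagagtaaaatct

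The DP peak near 301 kb held 4 CAGGTG or CACCTG sites and 2 CAGCTG sites over its whole length. Arid1a, the paralog of Arid1b, had 3 DP peaks, with scores of 201, 99.0 and 55.1. Arid2, which marks the PBAF form, had 7, and its best lay 29.5 kb upstream with a score of 924 and a rank of 1845. Pbrm1, the other PBAF gene, had 3 peaks with scores from 50.7 to 129. The peaks of the subunit genes Smarcb1, Smarce1 and Smarcc2 all scored below the median of the DP list, 141. Genes of like length had a mean of 0.960, 0.865 and 1.08 DP peaks. Smarcb1 had 2 with scores of 73.9 and 54.0, Smarce1 had 2 with scores of 136 and 80.4, and Smarcc2 had 1 with a score of 64.4, and all 5 lay outside the gene bodies. Smarcc1 had no peak in its window, and the nearest DP peak, 40.2 kb outside the window on the upstream side, had a score of 1699.

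Of the 8 NuRD genes, 7 had a DP peak, against 3.69 by length. None had an iNKT peak, against 0.5 by length. The strongest belonged to Mbd2, which encodes a reader of methylated DNA and lies on chromosome 18 from 70727843 to 70785785. A peak 4.33 kb upstream of its start, from 70722464 to 70724555, scored 2349 and ranked 504 of the DP list. The other 3 Mbd2 peaks scored 162 at 21.7 kb upstream, 120 over the start and 59.5 at 1.05 kb into the gene. Mbd3, which encodes the related NuRD subunit, had 1 peak, near its start, with a score of 381. Chd4 had 4 DP peaks. The highest, 21.9 kb upstream with a score of 496, lay inside the neighboring gene Lpar5, and the next, with a score of 488, lay in an intron near the end of Chd4. Gatad2a also had 4, with a best score of 430 at 7.03 kb upstream, whereas its paralog Gatad2b had none. The scaffold genes Mta1, Mta2 and Mta3 had best scores of 486, 54.8 and 262. The Mta1 peak lay past the end of the gene, nearer to the start of Crip2.

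Of the 6 deacetylase genes, 5 had a DP peak, against 2.75 by length, and their peaks were concentrated at the class IIa genes, whose products shuttle between nucleus and cytoplasm. Hdac7, which lies on chromosome 15 between 97623095 and 97674933 (minus strand), held 8 DP peaks, or 9.21 per 100 kb of window, which placed it at 425 of 22208 protein-coding genes by density. The highest, in an intron 7.51 kb into the gene, had a score of 1132 and ranked 1431. A peak 3867 bp wide over the start of the gene had a score of 1009, and intronic peaks 34.0 and 18.7 kb into the gene had scores of 885 and 678. The other 4 had scores from 53.7 to 167. Hdac4 also held 8 DP peaks over a gene of 216 kb, 5 of them between 62.1 and 89.6 kb, and its best scores were 982 in an intron and 856 at 29.8 kb upstream, the latter just inside the window. Hdac5 had 3, the highest of which, with a score of 636, lay at an internal start site.

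The iNKT list had 1 peak at the deacetylase genes, in Hdac7, with a score of 51.3 and a rank of 1450 of 1516. The start of the neighboring gene Gm17532 lay nearer, and when iNKT peaks were given only to the nearest start site, 2 of the 46 genes, without Hdac7, had one (4.35%, beside 4.30% of all protein-coding genes). The peak overlapped the intronic DP peak with a score of 885, and both covered a dense array of E-boxes. The DP peak, from 97640181 to 97641696, held 22 CAGGTG or CACCTG sites, and the iNKT peak, from 97640648 to 97641681, held 20. The median over all peaks was 1 site in the DP list and 2 in the iNKT list. Only 38 DP peaks and 19 iNKT peaks of the whole lists held 20 or more. In the DP peak, 20 of the sites read CAGGTG on the plus strand, and 12 of their 19 spacings were exactly 14 bp. The array is shown at chr15:97641117-97641202 on the plus strand of mm9, beside the best DP peak of Hdac7 at chr15:97667110-97667195.
Hdac7 iNKT and DP peak: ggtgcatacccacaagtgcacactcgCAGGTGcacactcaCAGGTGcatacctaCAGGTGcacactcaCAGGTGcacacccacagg
Hdac7 best DP peak: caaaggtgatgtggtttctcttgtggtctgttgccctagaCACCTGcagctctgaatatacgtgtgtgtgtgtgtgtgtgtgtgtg

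**Figure D4:**
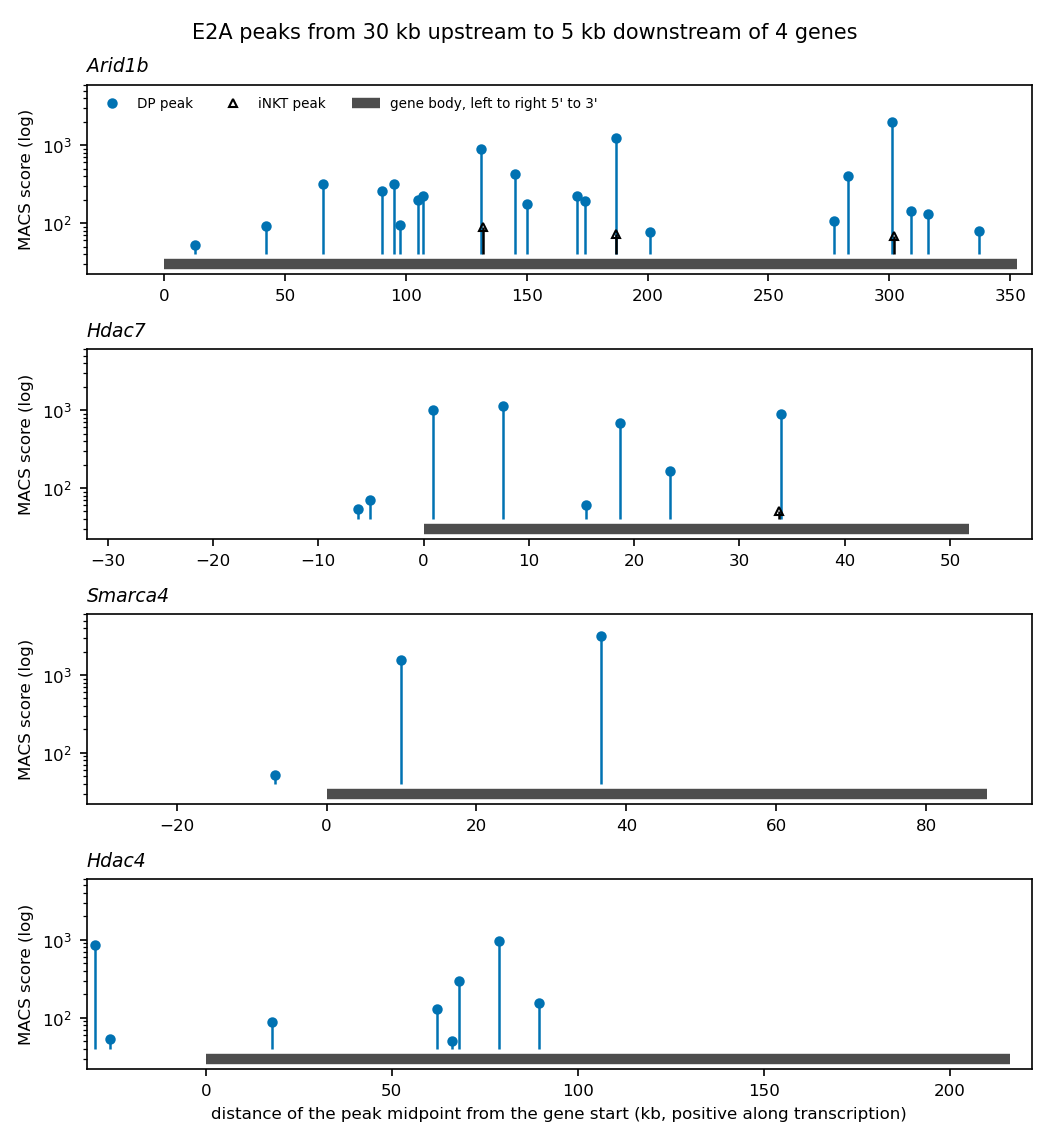
E2A peaks at Arid1b, Hdac7, Smarca4 and Hdac4, plotted at the distance of the peak midpoint from the gene start in kb, with the MACS score as height (log axis). Circles are DP peaks, open triangles are iNKT peaks and the grey bar is the gene body; each of the 3 iNKT peaks of Arid1b and the 1 of Hdac7 stands at a DP peak.

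The class I deacetylase genes had fewer peaks. Hdac2 had none. Hdac3 had 1, past its end, with a score of 69.2. Hdac1 had 2, and neither lay in the gene. The higher, on chromosome 4 between 129233503 and 129237455, scored 382 and lay 15.5 kb upstream of Hdac1, inside the neighboring gene Lck and 0.137 kb from one of the annotated start sites of Lck. The mice carry an LckCre transgene, and its part in this peak was not tested. Beyond the upstream edge of the Hdac1 window lay a DP peak scoring 202, at 1.17 kb, and an iNKT peak scoring 76.7, at 2.70 kb. The corepressor genes Ncor1, Sin3a and Sin3b, all 3 with a DP peak against 1.45 by length, differed in level. Sin3b had intronic peaks with scores of 670 and 50.4 and an exonic peak with 173, Ncor1 a peak over its start with 111 and an upstream peak with 50.6, and Sin3a 1 peak past its end with 88.9. Outside the Sin3a window, 76.5 kb from its start, lay both a DP peak scoring 1676 and an iNKT peak scoring 113.

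The coactivator genes stood at the share by length, and they are too few to be set apart from the other groups. Of the 4 acetyltransferase genes, 2 had a DP peak, against 1.94 by length. Among the other acetyltransferase genes, described below, 3 of 3 had one, with a best score of 372. Ep300 had a peak over its start with a score of 125, and Kat2b had peaks of 106 and 96.6. Crebbp and Kat2a had none. A DP peak with a score of 139 lay 1.16 kb beyond the downstream edge of the Crebbp window.

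Of the 7 Polycomb genes, 4 had a DP peak, against 3.33 by length. The highest scores were at Ezh1, with 517 at an internal start site, and at Jarid2, with 355 in an intron 43.6 kb into the gene. Jarid2, a cofactor of the histone methyltransferase complex, had 6 DP peaks in all, from 3.41 to 140 kb into the gene. Eed had a peak over its start with a score of 55.2, Rnf2 a peak past its end with 52.2, and Suz12 and Bmi1 had none. Ezh2, the methyltransferase gene between 47480273 and 47545340 of chromosome 6 (minus strand), was the only 1 of the 46 with an iNKT peak and no DP peak. Of all 22208 protein-coding genes, 1269 had an iNKT peak and 1078 had both an iNKT and a DP peak. The iNKT peak of Ezh2, from 47571104 to 47571758, lay 26.1 kb upstream, outside the alternative window of 10 kb upstream and 1 kb downstream. It scored 65.1, ranked 972 of 1516 and overlapped no DP peak. The nearest DP peak, 11.3 kb beyond the window, scored 126. The sequence at the Ezh2 peak, chr6:47571292-47571377 on the plus strand of mm9, holds a CAGGTG and a CAGCTG close together.
Ezh2 iNKT peak: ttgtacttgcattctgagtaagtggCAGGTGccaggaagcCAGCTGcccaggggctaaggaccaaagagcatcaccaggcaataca

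For DNA methylation, the genes for the de novo enzymes had peaks and the gene for the maintenance enzyme did not. Dnmt3a had 7 DP peaks, with scores of 777 at 49.9 kb and 401 at 65.4 kb into the gene and 5 others from 51.1 to 74.0, of which 4 lay at start sites. Dnmt3b had 1 upstream peak with a score of 663, which lay nearer to the start of Commd7. Dnmt1 had none in its window, although 0.420 kb beyond its edge, 51.1 kb from the Dnmt1 start, lay a DP peak scoring 140. Among the Tet genes, Tet3 had an intronic DP peak with a score of 296 and an upstream peak with 52.4, Tet1 had 2 intronic peaks with 118 and 66.9, and Tet2 had none. None of these 6 genes had an iNKT peak, against 0.3 by length for the Dnmt genes and 0.29 for the Tet genes. Outside the Tet2 window, both about 40 kb beyond its upstream edge, lay an iNKT peak scoring 87.6 and a DP peak scoring 55.6. Small groups such as these differ from the share by length by few genes, with 2 of 3 against 1.48 for the Dnmt genes and 2 of 3 against 1.50 for the Tet genes.

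Peaks at the 46 genes lay inside the genes more often than upstream of them. Of the 123 DP peaks, 65 lay in introns (52.8%, 44.1 to 61.4), 27 upstream (22.0%, 15.5 to 30.1), 23 within 1 kb of an annotated start site (18.7%, 12.8 to 26.5), 7 downstream and 1 in an exon. Over all protein-coding genes the shares were 34.4% in introns, 38.2% upstream and 17.1% at start sites. The comparison is affected by length, since longer genes have longer introns. It also rests in part on Arid1b, which alone held 21 of the 65 intronic peaks. The intervals treat the peaks of 1 gene as independent. An intronic or exonic DP peak over 1 kb from the start sites was found in 20 of the 46 genes (43.5%, 30.2 to 57.8), beside 15.1% of all protein-coding genes and 26.9% of those of like length. A DP peak at a start site was found in 15 (32.6%, 20.9 to 47.0), beside 14.4% and 18.6%. Among genes of like length with a CpG-rich start the share was 22.8%, which is inside the interval. Peaks at start sites were weaker than intronic ones, with median scores of 99.0 and 190, and 4 of 23 against 30 of 65 had a score of 200 or more. Over all protein-coding genes these medians were 111 and 154.

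Neighboring genes share part of these peaks. Of the 123 DP peaks, 42 also lay in the window of another protein-coding gene, and at 16 of the 36 bound genes every DP peak did. When each peak was given only to the gene with the nearest start site, 100 peaks and 29 genes remained, 63.0% of the 46 beside 28.3% of all protein-coding genes. The 7 genes that lost their peaks in this way were Smarcd1, Smarcb1, Smarce1, Hdac1, Hdac3, Sin3a and Dnmt3b, whose peaks lay nearer to the starts of Gpd1, Derl3, Chchd10, Krt222, Marcksl1, Lck, Diap1, Man2c1 and Commd7.

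The E-box content of the peaks was that of the whole list. In the 200 bp at the midpoint, CAGGTG or CACCTG was present in 52 of the 123 DP peaks (42.3%, 33.9 to 51.1), against 43.9% of all DP peaks and 18.7% of windows of the same size 2 kb to either side. The palindrome CAGCTG was present in 28 (22.8%, 16.2 to 30.9), against 29.0% of all DP peaks and 7.72% of the flanking windows. Over the whole length of the peak, 78.9% held CAGGTG or CACCTG, and 79.0% of all DP peaks did. By score, the midpoint share was 47.1% (34.1 to 60.5) of the peaks under 100 and 33.3% (17.2 to 54.6) of those at 500 or more. Among all DP peaks it ran the other way, from 40.8% to 47.2%, with both values inside these intervals. By position, the site was present at the midpoint of 8 of 23 peaks at start sites and of 24 of 65 intronic peaks, shares of 34.8% (18.8 to 55.1) and 36.9% (26.2 to 49.1). It was present in 15 of 27 upstream peaks (55.6%, 37.3 to 72.4) and 5 of 7 downstream peaks (71.4%, 35.9 to 91.8), with intervals that overlap those of the other positions. Over all protein-coding genes the shares were 34.7% at start sites, 45.7% in introns, 44.1% upstream and 44.6% downstream. The base before CAGGTG, read on its strand, was T at 5 of 70 midpoint sites (7.14%, 3.09 to 15.7), near the 8.50% of all DP peaks, and T preceded 19.5% of the sites in the flanks of all DP peaks. By their words of 31 bases, all 123 DP peaks and all 5 iNKT peaks had a median copy number of 1 in the assembly. A median over the whole peak does not show repeats in a part of it. Words found once made up 92.7% of the Hdac7 DP peak with the array and 89.9% of the Hdac7 iNKT peak. The lowest share was 50.6%, in a Jarid2 DP peak.

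Of the DP peaks at the 46 genes, 4 overlapped an iNKT peak, which is 3.25% (1.27 to 8.06), beside 5.99% of all DP peaks. Of the 5 iNKT peaks, 4 overlapped DP peaks (80%, 37.6 to 96.4), beside 69.3% of all iNKT peaks. Among DP peaks in the top 10%, 2 of the 9 at these genes overlapped an iNKT peak (22.2%, 6.32 to 54.7), and 30.8% of all such peaks did. The 2 are those in Arid1b, with scores of 1973 and 1221. The 7 others without an iNKT peak include both strong peaks of Smarca4, and those of Mbd2 and Smarcd2. With 1 library per cell type and unknown depth, absence of a peak from the iNKT list does not show absence of binding.

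Further genes of the same pathways gave a smaller difference. Of a list of 71 other chromatin genes, 67 were found in the annotation by symbol (Kat6a, Kat6b, Kat7 and Kat8 were not), and 42 of them had a DP peak, which is 62.7% (50.7 to 73.3) beside 46% of genes of like length. Among genes of other ATPase complexes (ISWI, INO80 and CHD) 12 of 16 had one, 75% beside 50.5% at like length, and among other Polycomb genes 12 of 17, 70.6% beside 43.3%. The other SWI/SNF genes, with 6 of 12, stood near the 46.4% of genes of like length. Other deacetylase and corepressor genes had 8 of 14, 57.1% beside 45%, and other acetyltransferase genes 3 of 3 beside 43.2%. Other DNA methylation genes had 1 of 5, 20% beside 44.6%. An iNKT peak was found at 4 of the 67, Chd7, Chd2, Ss18 and Baz1a. This is 5.97% (2.35 to 14.4), beside 8.10% of genes of like length and 5.71% of all protein-coding genes, and so no more than background. The Chd7 peak, with a score of 479 and a rank of 52 of 1516, stood above all 5 iNKT peaks at the 46 genes. Chd7 encodes a CHD family ATPase, and its best DP peak was 1 of the 258 with the shared score of 3100.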

How the data were processed

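E2A ChIP-Seq peak lists of L-DKO DP and iNKT cells were analysed. For alignment to mm9 the authors used Bowtie 1.1.2 and kept reads that mapped to a single place. MACS 1.4.2 then gave the peaks, with its default parameters. The deposited score of a peak is 10 times the negative log10 of its p-value against input. Inputs, reads and coverage were not used here, and depth is unknown. Start coordinates were written from 1.

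Genes were those of GENCODE M1 on NCBIM37, the assembly of mm9, taking the longest record of a symbol (Hdac4 has another, shorter record). The positions, overlap of at least 1 bp, E-box sites on the mm9 sequence and background shares were computed with Python 3.11.15, numpy 2.4.6, scipy 1.17.1, pysam 0.24.0 and numba 0.67.0. For each gene, genes of like length were the 200 nearest protein-coding genes by gene length, the 46 genes left out. A CpG-rich start had, in 500 bp, a GC content of at least 55% and an observed over expected CpG ratio of at least 0.6. The functions were tested on simulated data, with 7 of 7 checks recovered exactly on 300 genes. No test was run, since each cell type has 1 library.

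Full values were given for genes with a DP peak in the top 10% of the list, an iNKT peak or 8 or more DP peaks, and all other genes by counts and best scores. Peaks just outside windows, and the comparisons of the Hdac7 array and of Lck, were chosen after their values were seen. The genes and lists were chosen with earlier results of these data known. Alternatives changed the minimum score, the window, the assignment, the overlap, the background and the part of the peak searched.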

Additional observations from a re-analysis of the deposited data

How the results depend on the processing

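For 10 results, 46 alternative values were computed, 8 of them chosen after seeing the data. Shares were compared with their counting interval and counts with a factor of 1.5, by which 30 values stayed and 16 moved. The DP share stayed above that of genes of like length in all 6 alternatives, by 19.8 to 31.3 percentage points against 30.5, and the iNKT share stayed below it, with differences of -3.42 to -1.1 points against -1.67, which lie inside the counting interval.

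The share of genes with a DP peak moved to 63.0% with a minimum score of 100, with 10 kb upstream and 1 kb downstream, and with peaks given to the nearest start site. It moved to 47.8% with a minimum of 200 and to 52.2% in gene bodies alone, where the share of all protein-coding genes was 20.4%. These settings admit fewer peaks by construction. The number of DP peaks fell to 72 and 42 at the minimums of 100 and 200. At both minimums no iNKT peak remained, so the number was 0, the iNKT share was 0.00% and so was the share of DP peaks with an overlapping iNKT peak, 0.00%, and the overlap of iNKT peaks could not be computed. Searching the whole peak raised the share with CAGGTG or CACCTG to 78.9%. The share of DP peaks at start sites moved to 11.4% within 500 bp and to 8.94% with only the start of the gene record, since 11 of the 23 lay at the start of the record. Without Arid1b, 102 DP peaks remained. Unknown depth limits every statement on a missing iNKT peak. No paired analysis was possible because each group has 1 sample and no result comes from a test.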
